A study of Mus musculus with 12 samples.

Results

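Among the genes measured in cells of young and aged mouse hearts, 91 were higher at 18 months than at 8 weeks in every library of both cell fractions. They were selected on the measured values themselves. A gene was taken when its mean over all 12 libraries was at least 1 FPKM (fragments mapped to a transcript, scaled by its length and by the mapped fragments of the library), its smallest aged value lay above its largest young value in the cardiomyocyte fraction, and the same held in the non-cardiomyocyte fraction. The deposited table has 38282 genes, of which 15171 reached the minimum. In all, 94 genes met the rule, and 3 of these, the core clock genes Arntl, Npas2 and Clock, were set aside by name, as was Nfil3, which did not meet it. Because age chose these genes, their age differences are described here and not tested.

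The hearts came from male mice aged 8 weeks (young) or 18 months (aged), 3 hearts per age, and no strain, transgene or treatment is given in the labels. Hearts were digested by Langendorff perfusion and the cells centrifuged into cardiomyocytes (CM) and the remaining cells (non-CM), which gives 4 groups of 3 libraries. Both fractions of an age therefore come from the same hearts. It is not stated that each library is 1 heart, and the p-values measure the spread between libraries, which may be technical. The non-CM fraction is a mixture of endothelial cells, fibroblasts, macrophages and other cells, and neither fraction is pure. Libraries are called 0, 1 and 2 within each group, as in the columns of the table, and values are listed in that order.

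The heart holds resident macrophages, which take up dying cells and debris and which are in part replaced from blood monocytes over life. C-type lectins of the CD209 family are receptors that such phagocytes and dendritic cells use to bind sugars on microbes and on the body's own glycoproteins. Chemokines attract further leukocytes, and natural killer and T cells are found in the heart in small numbers.

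Of the 15171 genes, 2.31% were above without overlap in aged CM, 8.09% in aged non-CM and 0.620% in both. Below without overlap were 3.12% in aged CM and 10.7% in aged non-CM. If the fractions were independent, 1 gene in 400 would be above in both by the order of the values alone, or 37.9 genes. They are not independent, since they share hearts, so this number is a yardstick and not a test. In a single fraction the same yardstick is 1 gene in 20, or 759 genes. In aged CM 351 genes were above and 473 below, and in aged non-CM 1228 were above and 1617 below. Genes with opposite differences in the fractions numbered 17, for which the same yardstick gives 75.9, and 175 genes were below in both. The 94 genes were 26.8% of those above in CM and 7.65% of those above in non-CM. The size of the difference varied widely among members. The median difference on the log2(FPKM + 0.1) scale was 0.75 in CM and 0.65 in non-CM, against -0.05 and -0.01 over all 15171 genes. In 26 members both differences were at least 1, in 11 members at least 2, and in 25 members both were under 0.5. Members were expressed at a median of 4.82 FPKM, against 12.1 FPKM for all genes above the minimum. In all 12 libraries 85 members were above 0, and 6 were listed at 0 in at least 1 young library.

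**Figure D1:**
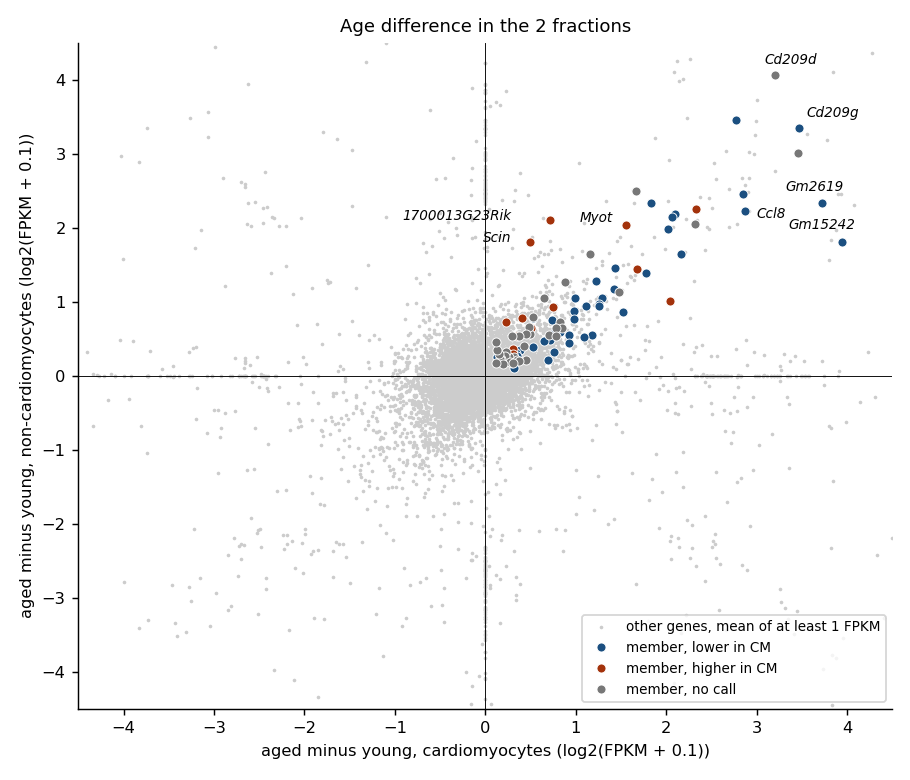
Aged minus young difference of each gene on the log2(FPKM + 0.1) scale in cardiomyocytes (x axis) and non-cardiomyocytes (y axis), as means of 3 libraries per group; coloured points are the 91 members, by their call in the comparison of the fractions, and grey points are other genes (168 lie beyond the axes). The 91 members all lie in the upper right of the plot, where the rule placed them, and Cd209d, Cd209g, Gm2619 and Gm15242 are among those far from the origin.

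CD209 lectins had large differences. Cd209g, Cd209d, Cd209f and Cd209b held the first 4 places when members were ordered by the smaller of their differences in the fractions, and Cd209a, at place 16, was also a member. This order rests on the pseudocount, because these genes were near 0 in young libraries. With a pseudocount of 1 the places were 11, 10, 2 and 17, and 14 for Cd209a, and Spon2 was first. All 5 lie on chromosome 8 within 394 kb (GRCm38, chr8:3743397-4137707), together with the other CD209 genes, Cd209c and Cd209e. Chromosome 8 carried 9 of the 89 members that were found in the annotation GENCODE M21 (10.1%), against 5.26% of all genes above the minimum. These 9 include the 5 CD209 members, so the share is not read as a trait of the whole chromosome. Promoters are printed for Cd209g, Cd209d, Cd209f and Cd209b, the 4 highest-placed members by the smaller difference whose windows held a searched motif. They are RefSeq windows on GRCm38.p6 from 250 bases before to 50 bases after a start of the gene, 5′ to 3′ on the gene's strand. The RefSeq starts used for these genes lie within the GENCODE M21 genes, farthest inside for Cd209g. Capitals mark the antioxidant response element TGACNNNGC on either strand and the TATA box TATAAA. The windows are chr8:4134486-4134785 (plus strand) for Cd209g, chr8:3878450-3878749 (minus strand) for Cd209d, chr8:4105715-4106014 (minus strand) for Cd209f and chr8:3926792-3927091 (minus strand) for Cd209b.
Cd209g: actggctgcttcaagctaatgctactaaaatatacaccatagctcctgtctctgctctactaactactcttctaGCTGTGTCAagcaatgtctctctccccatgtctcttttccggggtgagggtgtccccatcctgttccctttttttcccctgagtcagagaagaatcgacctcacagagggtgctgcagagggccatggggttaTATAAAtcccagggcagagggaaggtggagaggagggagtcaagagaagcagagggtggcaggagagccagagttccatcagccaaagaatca
Cd209d: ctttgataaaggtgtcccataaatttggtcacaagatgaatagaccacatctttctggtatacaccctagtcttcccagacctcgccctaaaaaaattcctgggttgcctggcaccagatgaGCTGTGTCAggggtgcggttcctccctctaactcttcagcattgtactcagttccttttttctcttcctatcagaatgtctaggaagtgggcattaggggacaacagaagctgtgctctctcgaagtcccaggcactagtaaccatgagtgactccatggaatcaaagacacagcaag
Cd209f: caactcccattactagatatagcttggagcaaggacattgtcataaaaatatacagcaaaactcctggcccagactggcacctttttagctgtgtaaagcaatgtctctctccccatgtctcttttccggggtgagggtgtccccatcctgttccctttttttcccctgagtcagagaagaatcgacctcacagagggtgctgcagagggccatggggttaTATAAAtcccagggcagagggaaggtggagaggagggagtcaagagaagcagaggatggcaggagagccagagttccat
Cd209b: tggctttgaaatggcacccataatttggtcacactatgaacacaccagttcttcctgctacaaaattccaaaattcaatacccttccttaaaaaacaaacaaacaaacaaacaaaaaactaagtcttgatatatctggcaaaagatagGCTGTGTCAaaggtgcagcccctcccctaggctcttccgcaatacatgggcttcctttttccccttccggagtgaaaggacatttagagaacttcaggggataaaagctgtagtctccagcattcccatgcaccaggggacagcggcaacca
The windows of Cd209f and Cd209g were 81.2% identical after global alignment, and both hold TATAAA, 29 bases before the start of Cd209f and 43 bases before that of Cd209g. The other pairs among the 5 members were 45.7% to 58.8% identical. The TGACNNNGC match of Cd209g, Cd209d and Cd209b reads GCTGTGTCA in each window, and begins 176, 128 and 102 bases before the start. A match to these letters is a description and not evidence of a bound site.

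The 5 CD209 members were, by the rule, above every young library of the same fraction in each aged library. Cd209f, the most abundant of them, was at 1.81, 0.0639 and 0.569 FPKM in the young CM libraries and at 8.99, 2.94 and 9.86 FPKM in aged CM. In non-CM it was at 2.75, 1.15 and 1.17 FPKM in young hearts and at 11.9, 16.8 and 11.4 FPKM in aged hearts. The aged mean was 8.91 times the young mean in CM and 7.92 times in non-CM, and aged CM library 1 lay clearly below the other 2. Cd209g was at 0.5, 0 and 0 FPKM in young CM, at 2.37, 0.874 and 3.28 FPKM in aged CM, at 0.586, 0.263 and 0.395 FPKM in the young non-CM libraries and at 4.25, 6.43 and 4.52 FPKM in aged non-CM. Cd209d was at 0.282, 0.170 and 0 FPKM in young CM, at 2.76, 0.705 and 3.38 FPKM in aged CM, at 0.572, 0.163 and 0 FPKM in the young non-CM libraries and at 3.38, 5.26 and 4.33 FPKM in aged non-CM. Both were near or at 0 in most young libraries, so a fold change from their young level has little meaning. Cd209b was at 0.221, 0.0835 and 0 FPKM in young CM, at 1.25, 0.532 and 2.12 FPKM in aged CM, at 0.285, 0.240 and 0.138 FPKM in the young non-CM libraries and at 2.24, 6.20 and 2.68 FPKM in aged non-CM. Cd209a, a lectin of dendritic cells and monocytes, was at 0.690, 0.472 and 0.142 FPKM in young CM, at 2.36, 1.27 and 2.82 FPKM in aged CM, at 2.17, 1.59 and 1.15 FPKM in the young non-CM libraries and at 4.03, 7.99 and 4.28 FPKM in aged non-CM. Library 1 was the lowest of aged CM and the highest of aged non-CM for all 5 genes. Each of the 5 also met the rule under the 4 other scalings tried. In bulk RNA a change in the number of cells of a type and a change in RNA per cell cannot be told apart.

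**Figure D2:**
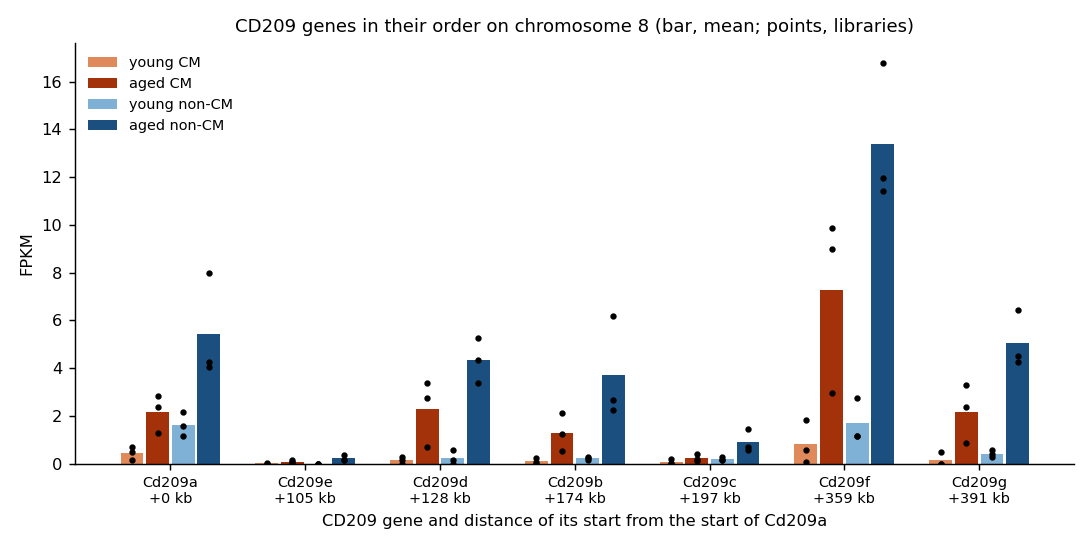
FPKM of the 7 CD209 genes in their order along chromosome 8, with the distance of each start from that of Cd209a in kb; bars are means of 3 libraries and points single libraries of young and aged cardiomyocytes (CM) and non-cardiomyocytes (non-CM). Aged bars exceed young bars for all 7 genes in both fractions, and the bars of Cd209e and Cd209c stay below 1 FPKM.

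The remaining 2 genes of the cluster did not reach the minimum of 1 FPKM. Cd209c was at 0.584, 1.43 and 0.701 FPKM in aged non-CM, above 0.164, 0.259 and 0.170 FPKM in young non-CM, and its CM values overlapped between the ages. Cd209e, at 0.366 FPKM or less in every library, was above without overlap in both fractions and was left out by the minimum alone. The 7 other genes of the table in the span held 2 with a mean of at least 1 FPKM, RP24-215A14.2 and Gm16589, and neither was above in both fractions. Reads could be shared between Cd209f and Cd209g. Of the 75-base windows of the longest Cd209f transcript, which is the read length, 23.4% also occur in Cd209g, so the split of reads between these genes is uncertain.

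Macrophage markers were not among the members, and their summed level overlapped between the ages in both fractions. The list of 10 (Emr1, Csf1r, Cd68, Lyz2, Mrc1, C1qa, C1qb, C1qc, Fcgr1 and Cd163) had 0 genes above in either fraction and 2 below in aged non-CM, where 2.31% (CM) and 8.09% (non-CM) of all genes were above and 10.7% below, and none was at 0 in any library. Its summed level was 1851, 1450 and 1744 FPKM in young non-CM and 1413, 1515 and 1569 FPKM in aged non-CM, with Lyz2 as the most abundant gene at a mean of 442 FPKM. In CM the sum was 633, 342 and 483 FPKM in young hearts and 758, 220 and 1179 FPKM in aged hearts, so the aged libraries spread on both sides of the young ones. Within aged CM the macrophage sum and the 5 CD209 genes had the same order, lowest in library 1 and highest in library 2. The part of macrophage number in the CD209 values was not tested. On the log2(FPKM + 0.1) scale the mean of the list was 6.4 in young and 6.22 in aged non-CM (exact permutation test over 3 against 3 libraries, two-sided p = 0.3, where the smallest possible p is 0.1, so that no difference could pass 0.05), and 4.55 and 4.80 in CM (exact permutation p = 0.8). A list of 10 genes, written after the data had been seen, holds genes of resident macrophages and Ccr2. It gave 5.69 in young and 5.6 in aged non-CM (exact permutation p = 0.4). Within that list Ccr2, the chemokine receptor of monocyte-derived macrophages, was at 4.13, 3.86 and 6.68 FPKM in the young non-CM libraries and at 9.22, 11.7 and 14.0 FPKM in aged non-CM, without overlap, while in CM its values overlapped. Cbr2, Mrc1 and Folr2 of the same list were below without overlap in aged non-CM, with Cbr2 at 149, 135 and 130 FPKM in the young non-CM libraries and at 111, 116 and 117 FPKM in aged non-CM. The other 6 genes of the list overlapped in both fractions.

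**Figure D3:**
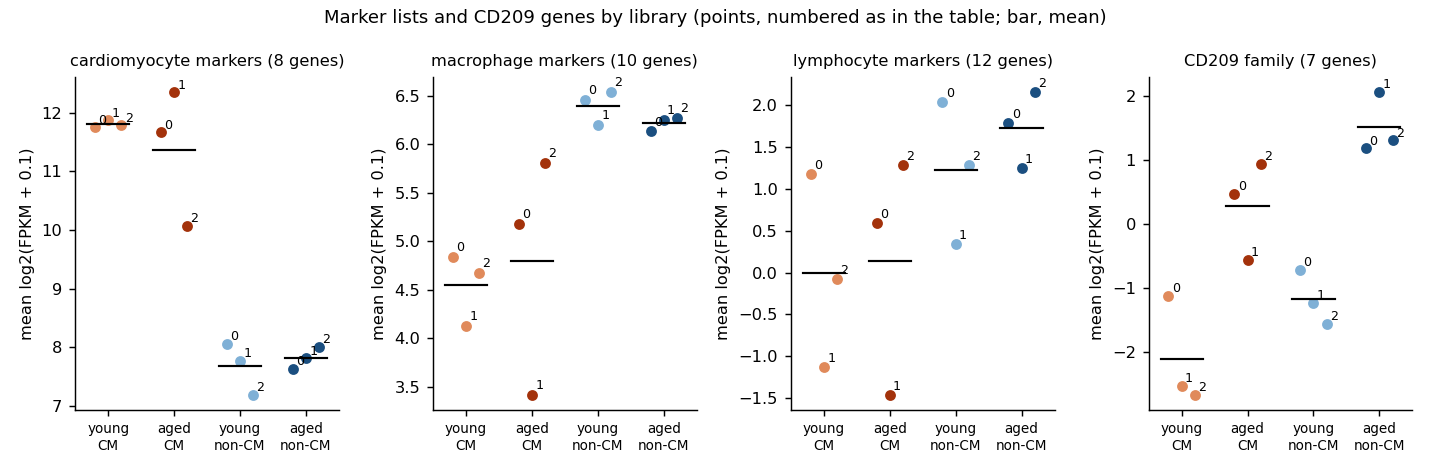
Mean log2(FPKM + 0.1) of the cardiomyocyte, macrophage and lymphocyte marker lists and of the 7 CD209 genes in each of the 12 libraries, numbered 0 to 2 within each group; bars are means of 3 libraries. Aged cardiomyocyte library 2 is lowest in cardiomyocyte markers and highest in macrophage markers among the cardiomyocyte libraries and library 1 is the reverse, while the CD209 genes are separated by age in both fractions.

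Chemokine and lymphocyte receptor genes formed the next set of large differences. Ccl8, a chemokine that attracts monocytes and T cells, was at 2.88, 0.985 and 1.58 FPKM in young CM, at 19.9, 4.03 and 25.7 FPKM in aged CM, at 7.24, 3.40 and 8.38 FPKM in the young non-CM libraries and at 30.9, 22.8 and 31.1 FPKM in aged non-CM. In non-CM all 3 aged libraries exceeded 22 FPKM, and in CM aged library 1 came close to the young values. Of the 27 genes of the list for inflammation and NF-kB, Ccl8 was the member. That list had 1 gene above and 1 below in aged CM, and 4 above and 5 below in aged non-CM, against 2.31% of all genes above and 3.12% below in aged CM and 8.09% above and 10.7% below in aged non-CM. Cxcr6, a chemokine receptor of activated T and natural killer T cells, was at 0.499, 0.608 and 0.503 FPKM in young CM and 1.89, 0.983 and 3.70 FPKM in aged CM. In non-CM Cxcr6 was at 0.942, 0.412 and 0.961 FPKM in young hearts and 3.97, 3.55 and 6.82 FPKM in aged hearts. It shares its span with Fyco1 on the opposite strand, and whether reads were counted by strand is not given in the sources used here. Klra9, an inhibitory Ly49 receptor of natural killer cells, had means of 0.988 (young) and 4.91 FPKM (aged) in CM and of 2.78 (young) and 11 FPKM (aged) in non-CM. Tcrg-C1, the constant segment of a gamma chain of the T cell receptor, had means of 0.236 and 1.15 FPKM in CM and of 0.733 and 4.03 FPKM in non-CM. Both belong to families of similar genes, and 12.9% and 17.6% of their transcript windows occur in relatives. Hrh2, a histamine receptor, had means of 0.413 and 1.59 FPKM in CM and of 1.23 and 3.56 FPKM in non-CM. Gnat3, a G protein subunit of taste cells, had means of 0.210 and 1.03 FPKM in CM and of 0.891 and 2.5 FPKM in non-CM.

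The lymphocyte list holds markers of T, natural killer and B cells. Of the 12 on the list, 10 reached the minimum, 0 were above in aged CM and 2, Cd3g and Nkg7, in aged non-CM, against 2.31% and 8.09% of all genes. Cd3g, a chain of the T cell receptor complex, was at 5.11, 0.780 and 3.05 FPKM in the young non-CM libraries and at 11, 8.26 and 21.0 FPKM in aged non-CM. Nkg7, a gene of natural killer and cytotoxic T cells, was at 2.14, 1.46 and 2.26 FPKM in the young non-CM libraries and at 3.86, 2.72 and 10.9 FPKM in aged non-CM. Cd3d, under the minimum, was also above in aged non-CM, at 1.29, 1.23 and 2.17 FPKM against 1.03, 0.311 and 0.825 FPKM. The other 9 genes of the list overlapped between the ages in non-CM, among them the T cell genes Cd3e, Cd4, Cd8a and Trac and the B cell genes Ms4a1 and Cd79b. The summed level of the list was 34.6, 8.55 and 15.7 FPKM in young CM, 26.2, 5.23 and 43.1 FPKM in aged CM, 67.1, 25.02 and 44.4 FPKM in young non-CM and 55.9, 43.4 and 83.6 FPKM in aged non-CM. Ptprc was the most abundant, with a mean of 9.51 FPKM, and Cd3e and Cd3d were at 0 in young CM library 1. The ranges of this sum overlapped between the ages in both fractions. The part of lymphocyte number in the values of Cxcr6, Klra9 and Tcrg-C1 was not tested.

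Several members code for secreted proteins. Spon2, a matrix protein that binds microbial products, was the most abundant of the first 5 genes, at 3.56, 0.803 and 1.88 FPKM in young CM, at 14.1, 6.68 and 25 FPKM in aged CM, at 10.6, 3.74 and 9.99 FPKM in the young non-CM libraries and at 35.2, 50.2 and 38.4 FPKM in aged non-CM. Every aged non-CM library was more than 3-fold above the highest young one. Lect1 (Cnmd in GENCODE M21), which codes for chondromodulin, an inhibitor of vessel growth made in cartilage and heart valves, was at 0.980, 1.85 and 1.06 FPKM in young CM, at 6.43, 2.75 and 10.1 FPKM in aged CM, at 6.49, 6.71 and 3.21 FPKM in the young non-CM libraries and at 21.3, 31.4 and 20.6 FPKM in aged non-CM. Of 33 genes for matrix and TGF-beta, 0 were above in aged CM, 7 were above and 3 below in aged non-CM, and none was a member, where 2.31% of all genes were above in aged CM, 8.09% above and 10.7% below in aged non-CM.

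Enzymes of several kinds were among the members. Aox3, an aldehyde oxidase, had means of 0.497 (young) and 2.56 FPKM (aged) in CM and of 1.76 (young) and 7.09 FPKM (aged) in non-CM. Gstm2, a glutathione transferase, was at 54.1, 49.5 and 42.9 FPKM in young CM, at 80.3, 73.8 and 55.5 FPKM in aged CM, at 37.2, 33.4 and 28.9 FPKM in the young non-CM libraries and at 54.0, 49.5 and 51.8 FPKM in aged non-CM. Gstm2 was the member of the list of 18 measured NRF2 targets, of which 1 was above and 1 below in aged CM and 3 were above and 1 below in aged non-CM (all genes, 2.31%, 3.12%, 8.09% and 10.7% in the same order). Hexa and Tpp1, a hexosaminidase and a peptidase of the lysosome, were abundant with small differences. Hexa had means of 47.1 ± 2.54 and 59.2 ± 7.96 FPKM in young and aged CM and of 67.1 ± 4.23 and 72.0 ± 1.49 FPKM in young and aged non-CM (SD, n = 3). Tpp1 had means of 26.8 ± 0.878 and 32.3 ± 0.604 FPKM in CM and of 30.4 ± 1.14 and 34.6 ± 0.732 FPKM in non-CM (SD, n = 3). The list of 29 genes for lysosome and autophagy holds Hexa but not Tpp1. Of these 29, 1 was above and 1 below in aged CM, and 5 were above and 2 below in aged non-CM. The shares of all genes are 2.31% above and 3.12% below in aged CM, and 8.09% above and 10.7% below in aged non-CM.

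Other members had their higher level in CM. Myot, which codes for the Z-disc protein myotilin, was at 17.7, 15.7 and 19.9 FPKM in the young CM libraries and at 65.2, 107 and 20.5 FPKM in aged CM. In non-CM Myot was at 1.30, 1.14 and 0.809 FPKM in young hearts and at 4.91, 4.26 and 4.84 FPKM in aged hearts. Cpxm2, a secreted protein of the carboxypeptidase family, behaved alike, at 12.6, 13.5 and 14.1 FPKM in young CM, at 50.6, 76.9 and 20.4 FPKM in aged CM, at 3.13, 1.90 and 2.1 FPKM in the young non-CM libraries and at 5.86, 6.41 and 7.29 FPKM in aged non-CM. For both genes aged CM library 2 was the lowest aged library, and for Myot it was only 1.03 times the highest young value. Scin, an actin-severing protein, was at 1.90, 1.88 and 1.81 FPKM in young CM, at 2.87, 3.18 and 2.08 FPKM in aged CM, at 0.743, 0.332 and 0.284 FPKM in the young non-CM libraries and at 1.504, 1.71 and 1.99 FPKM in aged non-CM, again with library 2 as the lowest of aged CM. Fhl1, a LIM protein of the sarcomere that responds to load, was at 88.5, 88.3 and 78.6 FPKM in the young CM libraries and at 112, 106 and 97.6 FPKM in aged CM, and had means of 67.7 (young) and 81.8 FPKM (aged) in non-CM. Fhl1 was the member of the cardiac stress list, of which 10 genes reached the minimum. That list had 1 gene above and 0 below in aged CM and 2 above and 0 below in aged non-CM (all genes, 2.31%, 3.12%, 8.09% and 10.7% in the same order). None of the 8 cardiomyocyte markers was above or below in either fraction. Their summed level was 76015, 90623 and 75984 FPKM in young CM, 79382, 123062 and 28378 FPKM in aged CM, 7659, 6926 and 5009 FPKM in young non-CM and 6348, 6682 and 8951 FPKM in aged non-CM, with Myl2 as the most abundant. The low sum of aged CM library 2 goes with its low Myot and Cpxm2.

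**Figure D4:**
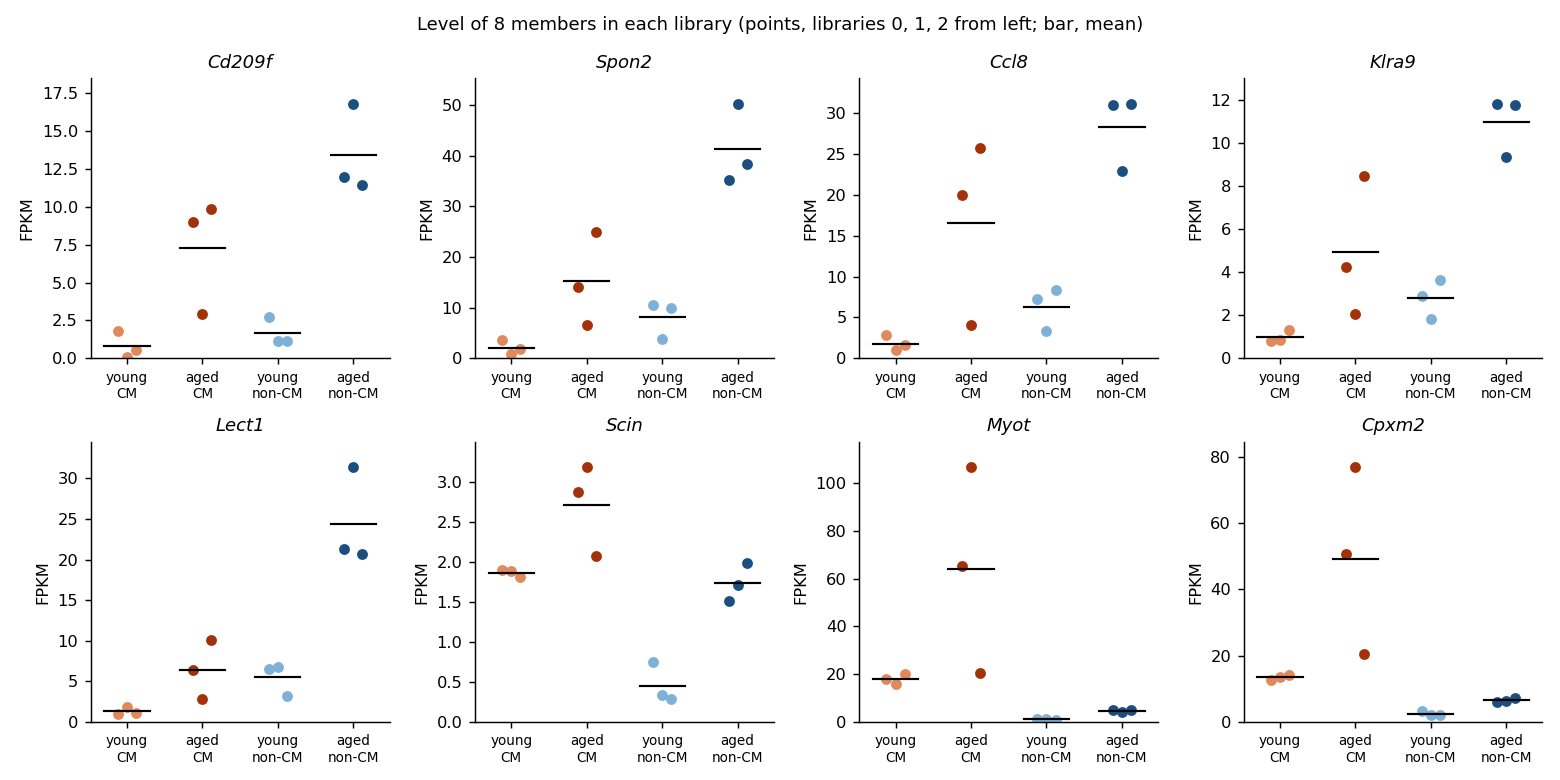
FPKM of 8 members in each library, on linear axes that start at 0; points are the libraries 0, 1 and 2 of each group from left to right and bars are group means. Cd209f, Spon2, Ccl8, Klra9 and Lect1 have higher means in non-cardiomyocytes (non-CM) and aged CM library 1 is their lowest aged value, whereas Scin, Myot and Cpxm2 have higher means in cardiomyocytes (CM) with library 2 as the lowest aged CM value.

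Among the 10 most abundant members was Mtch1, a protein of the outer mitochondrial membrane, with means of 221 ± 4.6 and 245 ± 22.2 FPKM in young and aged CM and of 212 ± 11.9 and 259 ± 14.4 FPKM in young and aged non-CM (SD, n = 3). Cd63, a tetraspanin of lysosomes and exosomes, had means of 57.7 and 74.4 FPKM in CM and of 66.5 and 76.0 FPKM in non-CM. Its processed pseudogene Cd63-ps was listed at 83.2 and 106 FPKM in CM and 90.6 and 105 FPKM in non-CM, and 33.5% of its windows are identical to Cd63, so these 2 members are not independent. Tspan17, another tetraspanin, had means of 20.2 and 34.1 FPKM in CM and of 29.0 and 41.6 FPKM in non-CM. Syne1, a giant protein that links nuclei to the cytoskeleton, had means of 23.6 and 32.3 FPKM in CM and of 29.0 and 33.5 FPKM in non-CM. P2rx4, a receptor channel for ATP, had means of 21.0 and 26.7 FPKM in CM and of 29.8 and 35.8 FPKM in non-CM.

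The edge of the rule was not sharp. The lowest aged value divided by the highest young value, taken in the fraction where it was smaller, had a median of 1.078 over the members. The smallest ratios inside were those of Uchl1, a ubiquitin hydrolase (1.0004), Fam40a (1.0007) and Alg1, a mannosyltransferase (1.002). Just outside lay Thra, a thyroid hormone receptor (0.9995), 2610034B18Rik (0.998) and Exo5, an exonuclease (0.998). With a gap of at least 1.2 times in both fractions 24 members were left.

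The level in one fraction against the other is a measure that the rule did not use. The comparison used limma over 20038 genes on log2(FPKM + 0.1), with the mean of the fraction difference at both ages. Members were lower in CM more often than higher. Of 91 members, 41 (45.1%) were lower and 14 (15.4%) higher in CM than in non-CM at a Benjamini-Hochberg adjusted p of 0.05. Of all 15171 genes above the minimum, 34.3% were lower and 32.6% higher. Some called members, 5 lower and 2 higher, had a mean under 1 FPKM in the fraction where they were lower, so that the minimum favoured their call. Among the 82 members with at least 1 FPKM in each fraction, 36 (43.9%) were lower and 12 (14.6%) higher, against 35.3% and 32.5% of the 13892 such genes. The median difference of all members was -0.40, against -0.09 for all genes. At 8 weeks alone, 31 members were lower and 11 higher in CM, where 25.2% of all genes were lower and 28.0% higher. At 18 months alone, 18 were lower and 7 higher, with 16.0% and 23.4% of all genes. The 18-month counts rest on the spread shared with the young libraries, since a fit to the 6 aged libraries called 0 members, 7 genes higher and 23 lower over all genes at the adjusted threshold, with 7053 at an unadjusted p under 0.05. When every library was scaled to the same FPKM sum, which shifts the median fraction difference by -0.71, 75 members were lower and 6 higher over both ages, beside 11022 genes lower and 3053 higher in all.

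The 26 members with both age differences of at least 1 included 16 lower in CM, 4 higher and 6 without a call. Among the strongest differences towards non-CM were those of Gm15242, a processed pseudogene (-2.13 ± 0.74 on the log2 scale, SE, limma adjusted p = 0.0302), Lect1 (-2.02 ± 0.33, limma adjusted p = 0.000703), Spon2 (-1.80 ± 0.42, limma adjusted p = 0.00488), Olfr1372-ps1 (-1.71 ± 0.34, limma adjusted p = 0.00207) and Aox3 (-1.58 ± 0.39, limma adjusted p = 0.00649). Among the strongest towards CM were those of Myot (3.70 ± 0.33, limma adjusted p = 4.27e-05), Cpxm2 (2.59 ± 0.28, limma adjusted p = 6.81e-05) and Scin (1.26 ± 0.21, limma adjusted p = 0.000902). The antisense lncRNA 1700013G23Rik reached the minimum through CM alone (means of 2.24 FPKM in CM and 0.411 FPKM in non-CM), so its difference of 2.62 is given without a test. The call of Gm15242 over both ages was lost in 4 of 12 fits that left out 1 library. These left out aged CM library 1, young non-CM library 0 or 1, or aged non-CM library 0. The value of Gm15242 ranged from -2.57 to -1.41 over the 12, the latter without young CM library 1. Of the CD209 genes, Cd209a and Cd209g were called lower in CM, the latter with its call lost in 7 of 12 such fits, whereas Cd209f (-1.25 ± 0.56, limma adjusted p = 0.0763) and Cd209d (-0.69 ± 0.55, limma adjusted p = 0.304) were not called. Cd209b reached the minimum through non-CM alone (means of 0.701 FPKM in CM and 1.96 FPKM in non-CM), so its difference of -1.14 is given without a test. Gstm2 and Fhl1 were called higher in CM by 0.49 and 0.35, but both signs turned under the same-sum scaling, to -0.23 and -0.36. Mtch1 did not differ detectably between the fractions (-0.01 ± 0.09, limma adjusted p = 0.931).

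**Figure D5:**
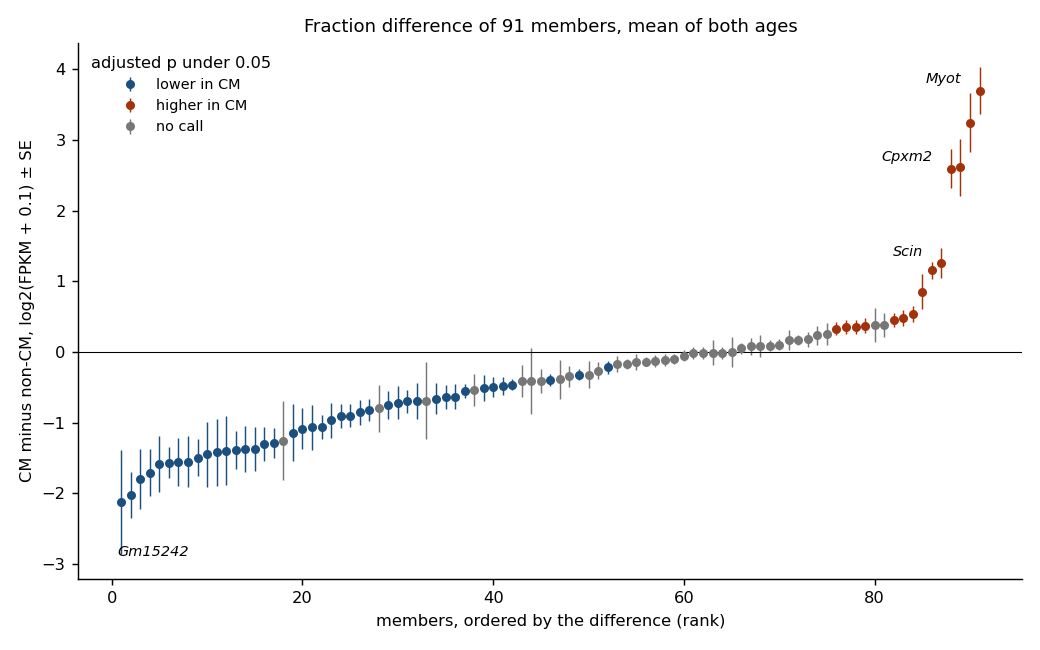
Difference between cardiomyocytes (CM) and non-cardiomyocytes (non-CM) of each of the 91 members on the log2(FPKM + 0.1) scale, averaged over both ages, with standard errors from limma, in increasing order; colours give the call at an adjusted p of 0.05. The 41 members called lower in CM reach -2.13 (Gm15242) and the 14 called higher reach 3.70 (Myot).

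Cell type markers of the aged CM libraries moved with the values of most members called lower or higher in CM. In aged CM library 1 the cardiomyocyte markers were highest and the endothelial, fibroblast and macrophage markers lowest of the 6 CM libraries, and in library 2 the reverse held. Of the 41 members called lower in CM, 38 had their lowest aged CM value in library 1 and 36 their highest in library 2. Of the 14 called higher in CM, 12 had their lowest in library 2. The 36 members without a call had their lowest aged CM value in libraries 0, 1 and 2 in 10, 16 and 10 cases. The same order was not counted over all genes called lower or higher in CM. These counts are therefore not read as a trait of the members. The endothelial markers had mean log2 levels of 6.74, 5.45 and 7.59 in the aged CM libraries. In the young CM libraries they were at 6.33, 6.59 and 6.59. The part of cell content in the members' values was not tested.

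Other differences went with age in these libraries. Clock genes separated the ages in both fractions. Arntl was at 2.92, 0.895 and 1.17 FPKM in young CM, at 16.0, 10.8 and 16.8 FPKM in aged CM, at 4.51, 1.85 and 2.63 FPKM in the young non-CM libraries and at 19.99, 18.3 and 21.0 FPKM in aged non-CM. Dbp, a clock output gene of the opposite phase, was at 147, 165 and 189 FPKM in young CM, at 34.8, 57.9 and 43.7 FPKM in aged CM, at 132, 173 and 185 FPKM in the young non-CM libraries and at 11.2, 18.5 and 22.1 FPKM in aged non-CM. Of the 11 genes of the opposite phase, 9 were below in aged CM and 11 in aged non-CM, against 3.12% and 10.7% of all genes. The labels give no hour of death, so hour and age cannot be told apart. Of 20 genes that respond to tissue dissociation, 0 were above, 1 was below in aged CM and 12 were below in aged non-CM, against 3.12% and 10.7% of all genes. Young libraries 0 had the highest atrial markers, with summed levels of 10897 FPKM in CM and 1729 FPKM in non-CM, against 364 to 1314 FPKM in aged CM and 72.4 to 257 FPKM in aged non-CM. The log2 mean of their adipocyte markers was also highest, at 5.08 in CM and 2.65 in non-CM, against at most 0.42 in the other libraries. Erythrocyte markers had log2 means of 3.86 and 5.02 in young and aged CM and of 6.15 and 6.89 in young and aged non-CM (exact permutation p = 0.2 and 0.5). The part of these in the members' values was not tested.

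The gene lists are read against the 0.620% of all genes that were above in both fractions. Of 26 lists for pathways and gene families, 7 held 1 member each, and none of the 11 cell type lists held any. The lists with a member besides those above were ribosomal proteins (Rps19-ps3, a pseudogene), Zfp zinc fingers (Zfp507) and solute carriers (Slc12a5, a potassium and chloride cotransporter). Interferon response genes had 0 of 34 above in either fraction and 6 below in aged non-CM, where 2.31% (CM) and 8.09% (non-CM) of all genes were above and 10.7% below. Of 17 genes for MHC class I, 1 was above in aged CM and 0 in aged non-CM, and of 9 for MHC class II 0 were above in either. Complement genes had 0 of 16 above in aged CM and 5 above and 1 below in aged non-CM, where 8.09% of all genes were above and 10.7% below. Genes for p53 and senescence had 0 of 20 above and 1 below in aged CM, and 2 above and 2 below in aged non-CM (all genes, 2.31%, 3.12%, 8.09% and 10.7% in the same order).

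By gene type, 76 of the 89 members in the annotation were protein-coding (85.4%, against 83.1% of all genes above the minimum), 7 were pseudogenes and 5 lncRNAs. Gm2619, a pseudogene at 0, 0 and 0.343 FPKM in young CM and at 3.14, 0.821 and 3.27 FPKM in aged CM, shares 29.8% of its windows with Sp100, Gm7582 and Gm7592. In all, 51 members had no window in common with another gene, 19 had at least 10% in common and 3 at least 50%, and 30 share their span with a gene of the opposite strand. Values of such members may include reads of their neighbours. Promoter windows were found for 61 members (70 windows). TATAAA was in 14.3% of them, against 7.38% of the windows of genes above the minimum and 13.6% of all windows. The E-box CACGTG, to which clock factors bind, was in 11.4%, against 9.76% and 7.15%. TGACNNNGC was in 15.7%, against 14.4% and 12.4%, and the interferon response core GAAANNGAA in 7.14%, against 7.37% and 8.56%. The D-box TTATGTAA was in 0 windows, against 0.492% and 0.938%. TAGGTCA was in 1.43% against 1.86% and 2.61%, and GAANNTTC in 7.14% against 5.92% and 7.86%. CCAAT was in 30.0% against 37.2% and 37.4%, and the GC box GGGCGG in 51.4% against 61.3% and 35.7%. These shares were not tested.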

How the data were processed

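RNA of 12 libraries was measured, 3 per age and fraction. Per the labels, polyadenylated RNA was sequenced as single 75-base reads, and the submitters' processing notes name TopHat2 2.0.9, Cufflinks and GRCm38. The annotation and the use of strand are not given in the sources used here. The authors deposited gene FPKM without counts, so count tests were not used and absolute depth is unknown. Depth relative to the deepest library, from the FPKM steps of rarely detected genes, was 0.410 to 1. Between 19857 and 21679 genes were above 0 per library. Column numbers (0 to 2) and sample titles (1 to 3) could not be matched, so columns were used as replicates of their group.

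Members and gene lists were chosen with earlier results of these data known. Named genes were the 20 members with the largest smaller-of-both differences, the 10 most abundant, members in the lists (up to 4 each), 3 on each side of the edge, and the 5 most enriched in each fraction; Ccr2, Cd209c and Cd209e were named after their values were seen. Some genes that this rule names are not reported here. Fractions were compared with limma 3.58.1 (R 4.3.3, eBayes with trend, 4 group means) on log2(FPKM + 0.1) for the 20038 genes whose mean reached 0.1 FPKM, with Benjamini-Hochberg adjustment. The pseudocount understates the differences of low genes. The p-values treat fractions of a heart as independent. On simulated data for the fraction contrast over both ages (20038 genes, a log2 difference of 2 put into 200) the fit found 80% of these and made 9 false calls. Counts were made in Python 3.11.15 with pandas 2.3.3. Alternatives were pseudocounts, filters, scalings, no trend, a replicate block and leaving out libraries. Windows of 75 bases and gene positions came from GENCODE M21 and promoters from RefSeq (GRCm38.p6).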

Additional observations from a re-analysis of the deposited data

How the results depend on the processing

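The number of members depended on the threshold and the libraries. It was 148 with a mean of at least 0.1 FPKM, 168 with no minimum, 43 with a mean of at least 5 FPKM, 166 with upper quartile scaling and 152 with quantile scaling within fractions, 24 with a gap of at least 1.2 times and 13 with a gap of at least 1.5 times (the last chosen after seeing the data). Of the 91 members, 88 were kept under median ratio scaling, 50 under the same FPKM sum, 89 under upper quartile and 77 under quantile scaling, and 41 under all 4. Of the 20 with the largest differences, 18 were kept under all 4, and Aox3 was among those lost under the same sum. The same sum shifts the median age difference by 0.13 in CM and 0.06 in non-CM. Leaving out 1 library, which asks less of a gene by construction, gave 104 to 451 genes. The highest counts were 451 without aged CM library 1 and 219 without aged CM library 2. Without both young libraries 0 (chosen after seeing the data) the count was 201. After division by markers of the other cells (chosen after seeing the data), 24 of 41 members lower in CM were above in aged CM and 7 of 14 higher in CM were above in aged non-CM. As the rule chose members on these values, the counts support nothing. Of all genes with the same call and above as deposited, 32 of 145 and 65 of 501 stayed above.

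For the fraction contrast over both ages, the same-sum scaling gave 3053 genes higher and 11022 lower in CM, and 6 and 75 members. At 8 weeks it gave 2784 and 9224 genes, and 6 and 61 members. At 18 months it gave 2303 and 8348 genes, and 3 and 62 members. A fit to the 6 libraries of that age gave at 18 months 7 genes higher and 23 lower, and 0 and 0 members. Without 1 library, members higher and lower in CM were 14 to 16 and 34 to 44 over both ages, 7 to 12 and 16 to 37 at 8 weeks, and 4 to 12 and 3 to 37 at 18 months. Genes higher and lower were then 5263 to 6122 and 5325 to 6696 over both ages, 3973 to 5291 and 2328 to 5273 at 8 weeks, and 2258 to 5333 and 351 to 5169 at 18 months. The cause was not tested. Under the same sum the differences of Fhl1 (-0.36), Uchl1 (-0.26), Gstm2 (-0.23) and Rps19-ps3 (-0.29) turned negative. That of Mtch1 turned positive with median ratio scaling (0.036), and without 1 library it ranged from -0.0463 to 0.014, with a positive sign without aged CM library 0 or 1, young non-CM library 1 or aged non-CM library 2. Of 780 values of 39 named members under 20 settings, 717 kept direction and side of the threshold, 28 lost the call, 26 gained one and 9 reversed. The lost calls were those of Cd209b (9), Cd209g (7), Gm2619 (7) and Gm15242 (5). The 39 include members, such as Cd209b, that reached the minimum through a single fraction. Their calls are counted here but are not read as tests.

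Column numbers may mark hearts. Deviations of libraries with the same number correlated over genes at 0.15, 0.08 and 0.08 in young and 0.05, 0.009 and 0.01 in aged hearts. Libraries with different numbers gave -0.09 to 0.006 in young and -0.03 to 0.012 in aged hearts. The same-number values lay above the others in young hearts and overlapped them in aged hearts, so pairing is not established. With a replicate block for age and number, 14 members were higher and 41 lower over both ages, 10 and 33 at 8 weeks, and 5 and 17 at 18 months. With 3 libraries per group and unknown depth, differences of members below about 1 FPKM are the least certain.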
